A study of Mus musculus with 8 samples.

Results

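Dnah2 encodes a heavy chain of axonemal dynein, the motor of motile cilia and flagella. It was represented by 2 probe sets, 1438763_at and 1454103_at, out of 45037 probe sets tested on Affymetrix mouse whole-genome arrays, and by 1 of 18194 genes. The members are all probe sets annotated to Dnah2 and to no other gene. Dnah2 was chosen by its measured response, the signals with the Echinacea extract over those with vehicle, so its values are given as a description with no test.

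The cells were immature dendritic cells grown from the bone marrow of female BALB/c mice, 6 weeks old, in 9 days of culture with the growth factor GM-CSF. The 4 groups received [BF/S+L/Ep], a defined extract of Echinacea purpurea, at 75 μg/mL for 12 h, the vehicle DMSO for 12 h, the extract for 4 h, or DMSO for 4 h, and every group, with extract or without, contained 0.1% DMSO. Each group had 2 arrays, 8 in all, described by the study as biological replicates, with nothing to show that each pair came from separate mice. The sources name no mutation or transgene, and the non-adherent cells of the plates were used, with no sort described.

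Dynein heavy chains are large ATPases that walk along microtubules. The axonemal heavy chains sit in rows on the microtubule doublets of cilia and sperm tails, in outer and inner arms, and their sliding bends the axoneme. Dnah2 belongs to the inner arms, and human DNAH2 mutations are known from infertile men whose sperm tails are malformed. Dendritic cells have no motile cilia, and the cytoplasmic dynein that they use for transport is built on another heavy chain, Dync1h1.

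The Dnah2 promoter is shown as background on the gene described here. RefSeq lists 15 transcripts for Dnah2, on chromosome 11, and which of them the probe sets read was not determined. The 300 bases shown are 250 before and 50 after the annotated start, from the RefSeq promoter table, build GRCm38.p6, chr11:69549059-69549358, minus strand. Capitals mark the 3 motif matches found.
Dnah2 promoter: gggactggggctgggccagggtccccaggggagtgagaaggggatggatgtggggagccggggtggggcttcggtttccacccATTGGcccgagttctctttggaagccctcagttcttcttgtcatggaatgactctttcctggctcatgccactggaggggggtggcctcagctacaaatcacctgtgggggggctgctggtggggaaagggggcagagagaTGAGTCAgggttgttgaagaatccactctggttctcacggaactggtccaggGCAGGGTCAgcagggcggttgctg

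For 5 motifs a search was run on both strands, with positions counted from the start as 0. The AP-1 motif, TGANTCA, had 1 match, which begins at position -26, and 7.81% of the 32851 promoters of the same length in the table hold a match. The NRF2 core motif, TGACNNNGC, had 1 match on the opposite strand, beginning at position 26 (12.4% of promoters). The CCAAT box had 1 match, also on the opposite strand and beginning at position -167 (37.4% of promoters). The AhR core, GCGTG (32.4% of promoters), and an NF-κB motif, GGGA, any base, then TTTCC (0.411% of promoters), had 0 matches in this window. A match is a description of these letters, and binding was not measured.

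Signals are the MAS5 intensities that the authors deposited, on a linear scale. To say whether a probe set was measurable, each array was given a background reference. This was the 95th percentile of its 83 receptor probe sets of the taste, vomeronasal and olfactory families. These families were assumed to be mostly silent in these cells, which was not checked. The reference was between 66.7 and 107.1 over the 8 arrays, and 48.8% to 55.5% of all probe sets lay above it. Dendritic cell markers were present throughout: all 10 listed genes exceeded the reference in 4 or more arrays, and Itgax, which encodes CD11c, had 15329 and 14431 with extract at 12 h, 13920 and 15234 with DMSO at 12 h, 19031 and 18834 with extract at 4 h, and 18420 and 19541 with DMSO at 4 h.

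Probe set 1438763_at, read as Dnah2 by its annotation, was above the reference on all 8 arrays. It had signals of 2913.4 and 3609.0 with [BF/S+L/Ep] at 12 h, against 979.4 and 1106.8 with DMSO at 12 h. At 4 h it had 930.6 and 883.3 with [BF/S+L/Ep], against 397.8 and 475.0 with DMSO. The extract arrays were higher than the DMSO arrays at both times, the groups did not overlap at either time, and the lowest of the 8 values was 4.35 times the reference of its array while the highest was 47.4 times its own. A signal from bulk RNA cannot tell more RNA per cell from more cells that hold the transcript.

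With [BF/S+L/Ep] at 12 h Dnah2 averaged 3261 ± 492, against 1043 ± 90.1 with DMSO (SD, n = 2 each), a ratio of means of 3.13. The 4 ratios of an extract array to a DMSO array lay between 2.63 and 3.68. At 4 h the means were 907 ± 33.4 with extract and 436.4 ± 54.6 with DMSO (SD, n = 2 each), a ratio of 2.08, and the 4 ratios lay between 1.86 and 2.34. On the log2 scale the extract minus DMSO difference was 1.64 at 12 h and 1.06 at 4 h, each with a standard error of 0.15. Their average was 1.35 (standard error 0.10). The standard deviation between duplicate arrays, pooled over the groups, was 0.16 on the same scale, well below each of these differences.

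The response at 12 h exceeded that at 4 h by 0.58 on the log2 scale (standard error 0.21). This difference is smaller than either response, and it uses the arrays that chose the gene, so no test of it is given. Among the 23561 probe sets that exceeded the reference in 4 or more arrays, 1438763_at ranked 73 by its rise at 12 h, 249 by its rise at 4 h, 38 by the average and 1576 by the difference of the responses. Non-overlap alone is common with duplicates: the extract arrays lay above both DMSO arrays for 15.1% of all probe sets at 12 h, for 15.1% at 4 h, and for 3.34% at both times.

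**Figure D1:**
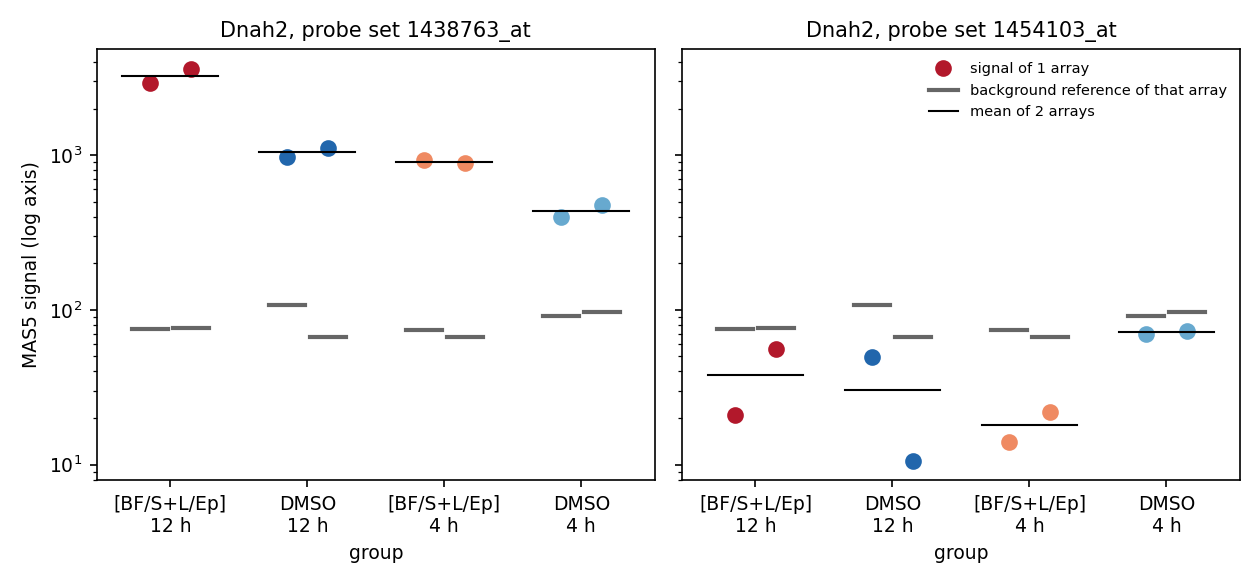
MAS5 signal (log axis) of the 2 Dnah2 probe sets on each array, by group, with the mean of 2 arrays as a thin line and the background reference of each array as a grey bar. Probe set 1438763_at runs between 397.8 and 3609.0 and is above the reference on all 8 arrays, with the extract arrays above the DMSO arrays of the same time. Probe set 1454103_at, between 10.6 and 73.3, is under the reference on all 8.

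The signal of Dnah2 also differed with time in cells that never received the extract. These DMSO arrays were also part of the response by which the gene was chosen, so this contrast is a description too. The DMSO cells had 979.4 and 1106.8 at 12 h, against 397.8 and 475.0 at 4 h. Both later arrays were higher than both earlier ones, by ratios of 2.06 to 2.78, and in 22.5% of all probe sets the 12 h arrays lay likewise above both 4 h arrays. The log2 difference, 12 h minus 4 h, was 1.26 (standard error 0.15), larger than the spread between duplicates. Among the 23561 probe sets that exceeded the reference in 4 or more arrays it ranked 358 by this rise.

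In cells with [BF/S+L/Ep], Dnah2 had 2913.4 and 3609.0 at 12 h, against 930.6 and 883.3 at 4 h. The 12 h arrays exceeded the 4 h arrays by ratios of 3.13 to 4.09, and the log2 difference was 1.84 (standard error 0.15). The later arrays lay above both earlier ones for 22.0% of all probe sets. By this rise the probe set ranked 92 of the 23561.

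From the highest level down, the groups were [BF/S+L/Ep] at 12 h, DMSO at 12 h, [BF/S+L/Ep] at 4 h and DMSO at 4 h, with no overlap between neighbours. The gap between the closest arrays was 1806.6 between [BF/S+L/Ep] and DMSO at 12 h, where the wider group spanned 695.6. It was 408.3 between [BF/S+L/Ep] and DMSO at 4 h, wider than the range within either group. Between DMSO at 12 h and [BF/S+L/Ep] at 4 h the gap was 48.8, less than the 127.4 between the duplicate DMSO arrays, so these neighbours did not differ beyond their spread. Of all probe sets, 0.435% had the 4 groups in this order without overlap.

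The second Dnah2 probe set, 1454103_at, gave no measurable signal. It had 20.8 and 55.5 with [BF/S+L/Ep] at 12 h, 49.7 and 10.6 with DMSO at 12 h, 14.1 and 21.9 with the extract at 4 h, and 70.1 and 73.3 with DMSO at 4 h. All 8 values were under the reference of their array, so no fold is given, and the order of the groups was not that of 1438763_at. At 4 h the extract arrays lay below the DMSO arrays, and at 12 h the groups overlapped. The Dnah2 response therefore rests on 1438763_at alone. Which part of which transcript each probe set reads was not determined here, and the cause of the disagreement was not tested.

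The other heavy chains of axonemal dynein stayed at or near background. Of the 14 listed, 9 were measured by a probe set of their own: Dnah1, Dnah5, Dnah6, Dnah7a, Dnah8, Dnah9, Dnah11, Dnah12 and Dnah17. None of the 9 was above the reference on 4 or more arrays, 5 were under it on all 8, and only 5 of their 72 values exceeded it, by at most 1.27 times. In the average of both treatment times 0 of the 9 passed the limma test (0.187% of all genes did), with 3 at an unadjusted p under 0.05 (7.78% of all genes). These 3 were Dnah7a (adjusted p = 0.639), which was above the reference on 1 array, and Dnah12 (adjusted p = 0.567) and Dnah17 (adjusted p = 0.692), which were under it on all 8, so no fold is given. A p of this fit measures only the spread between the arrays of the series. The median log2 difference of the 9, nearly all from values under the reference, was -0.35, against -0.03 over all genes. For 12 h over 4 h in DMSO, 0 of the 9 passed (3.34% of all genes), also at an unadjusted p under 0.05 (15.0% of all genes).

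The 2 heavy chains that work outside the axoneme were above the reference on all 8 arrays. Dync1h1, the heavy chain of cytoplasmic dynein 1, which carries cargo toward microtubule minus ends, had 3316.7 and 2934.3 with [BF/S+L/Ep] at 12 h, 2814.9 and 2943.6 with DMSO at 12 h, 3376.5 and 3516.4 with the extract at 4 h, and 3076.1 and 3356.3 with DMSO at 4 h. The groups overlapped at 12 h and lay close at 4 h, and the average log2 difference was 0.11 (adjusted p = 0.808). Dync2h1, the heavy chain of the dynein that returns intraflagellar transport trains in cilia, had 276.8 and 263.5 with [BF/S+L/Ep] at 12 h, 227.8 and 161.9 with DMSO at 12 h, 204.9 and 175.2 with the extract at 4 h, and 148.8 and 174.4 with DMSO at 4 h. Its extract arrays were the higher ones at both times, but by far less than for Dnah2: 0.36 on the log2 scale for the average (adjusted p = 0.760). For 12 h over 4 h in DMSO the log2 differences were -0.16 for Dync1h1 (adjusted p = 0.622) and 0.25 for Dync2h1 (adjusted p = 0.818).

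**Figure D2:**
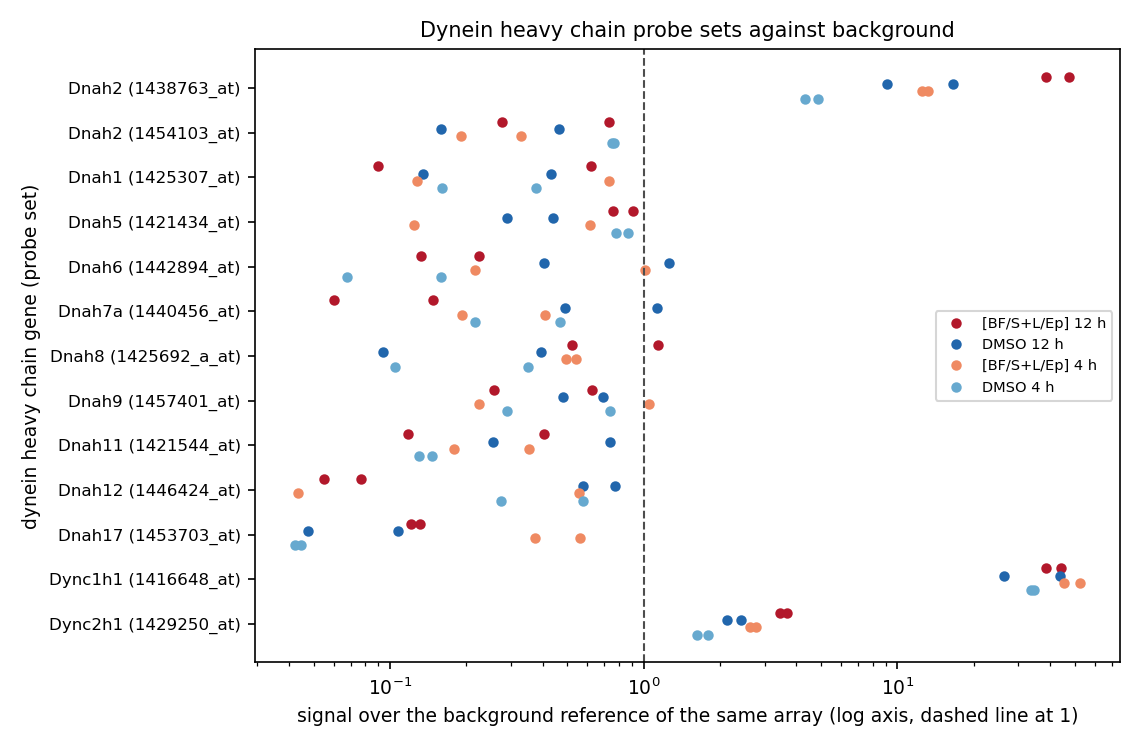
Signal of each dynein heavy chain probe set over the background reference of the same array (log axis, dashed line at 1), with 1 point per array, coloured by group. Only 1438763_at of Dnah2, Dync1h1 and Dync2h1 lie right of the line on all 8 arrays, and the 9 other axonemal heavy chains stay at or below 1.27. Rows are different probe sets and their levels are not compared with each other.

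The remaining parts of the dynein machinery were described by 3 further lists, drawn up by name. Of 36 subunits, regulators and dynactin components of the dynein motors, 30 were measured and 28 exceeded the reference in 4 or more arrays. None of the 30 passed the test for the average (0.187% of all genes did), with 1 at an unadjusted p under 0.05 (7.78% of all genes). Their median log2 difference was -0.07. Among the 28, the average ran from -0.28 for Hook1, a cargo adaptor, to 0.37 for Wdr60, an intermediate chain of cytoplasmic dynein 2. The gene with the unadjusted p under 0.05 was Dctn5, a dynactin subunit, with 0.21 (adjusted p = 0.673). Dync1i1, an intermediate chain of cytoplasmic dynein 1, was under the reference on all 8 arrays.

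Of 50 genes for axonemal dynein partners, dynein assembly and axoneme structure, 43 were measured, 10 exceeded the reference in 4 or more arrays and 27 were under it on all 8. The median for the average was 0.00 over the 43 and 0.04 over the 10. None of the 43 passed for the average (0.187% of all genes did), with 3 at an unadjusted p under 0.05 (7.78% of all genes). Those 3 were Dnaic1, an intermediate chain of outer arm dynein (adjusted p = 0.637), and Dnaaf4, a dynein assembly factor (adjusted p = 0.661), both under the reference on all 8 arrays, and Cfap43, an axonemal protein, above it on 5 (log2 difference 1.58, adjusted p = 0.706). The Cfap43 difference was 2.39 at 4 h, where the DMSO arrays had 105.2 and 5.7, and 0.76 at 12 h. It therefore leans on 1 array far under the reference. Of 14 regulators of ciliogenesis, 12 were measured and 5 exceeded the reference in 4 or more arrays. None of the 12 passed for the average, also at an unadjusted p under 0.05, against the same shares of all genes. The median was 0.01 over the 12 and -0.11 over the 5. Foxj1, the transcription factor that switches on the motile cilium program, was above the reference on 1 array only.

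Over all 4 lists, 94 genes other than Dnah2 were measured, and 0 passed the limma test for the extract at 12 h, at 4 h, for their average or for time in DMSO. The share of all genes that passed was 0.0440% at 12 h and 0.0110% at 4 h, so for the extract counts of 0 are near that background, while 3.34% passed for time in DMSO. At an unadjusted p under 0.05 the counts were 9 at 12 h (6.50% of all genes), 5 at 4 h (5.06%), 7 for the average (7.78%) and 4 for time in DMSO (15.0%).

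The genes beside Dnah2 on chromosome 11 were compared in RefSeq order, with the 5 nearest on each side that have a probe set of their own. On the side of the Dnah2 start, the nearest is Efnb3, an ephrin ligand, and on the other side Kdm6b, a histone H3 lysine demethylase. Of the 10 neighbours 7 exceeded the reference in 4 or more arrays. None passed the limma test for the average of the treatment times (0.187% of all genes did), also at an unadjusted p under 0.05 (7.78% of all genes). Their log2 differences lay between -0.59 and 0.49 with a median of -0.17, against 1.35 for Dnah2. For 12 h over 4 h in DMSO, 0 of 10 passed (3.34% of all genes) and 1 had an unadjusted p under 0.05 (15.0% of all genes). For 10 genes these counts are near the shares over all genes.

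Kdm6b had 697.1 and 749.5 with [BF/S+L/Ep] at 12 h, 655.4 and 611.7 with DMSO at 12 h, 491.9 and 600.1 with the extract at 4 h, and 544.0 and 472.1 with DMSO at 4 h. Its extract arrays were the higher ones at 12 h and its groups overlapped at 4 h, with an average log2 difference of 0.15 (adjusted p = 0.834). The other 2 Kdm6b probe sets had 0.10 and -0.14. Efnb3 was above the reference on 3 arrays and had -0.59 (adjusted p = 0.825). Chd3, a chromatin remodelling ATPase, had the unadjusted p under 0.05 for time: 337.0 and 272.1 with DMSO at 12 h, against 119.9 and 197.1 with DMSO at 4 h, a log2 difference of 0.98 (adjusted p = 0.196).

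**Figure D3:**
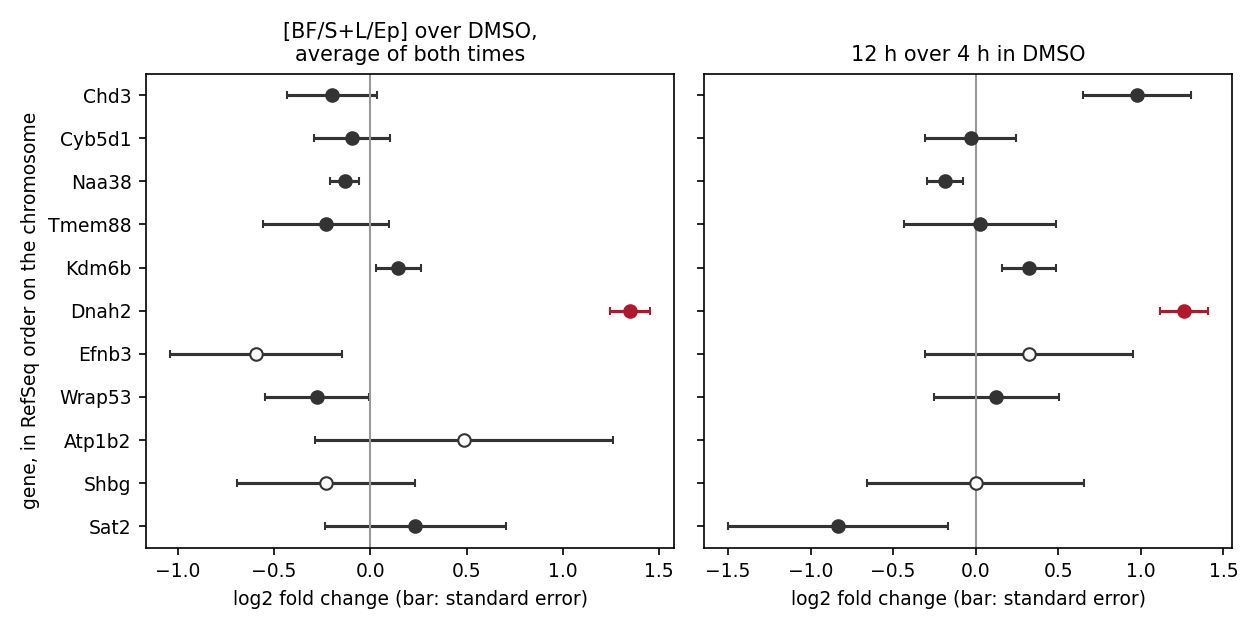
Log2 fold change with its standard error for Dnah2 (red) and the 10 neighbouring genes in RefSeq order, for [BF/S+L/Ep] over DMSO averaged over both times and for 12 h over 4 h in DMSO. Filled points are genes that exceeded the reference in 4 or more arrays, open points are the others, and Atp1b2 has no point for time because its 4 DMSO arrays were under the reference. Dnah2 is at 1.35 and 1.26, and the neighbours lie between -0.59 and 0.49 for the extract.

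The genes whose pattern was most like that of Dnah2 were found by comparing log2 signals with 1438763_at. The comparison covered 16562 probe sets of 9475 genes that were above the reference on all 8 arrays. It is a description over 8 arrays, which fall into only 4 groups and are not 8 independent conditions. Of the 16562 probe sets, 170 had r over 0.9 and 29 over 0.95. The 5 genes with the highest r, at 1 probe set per gene, were Ppbp (r = 0.986), a platelet chemokine also known as CXCL7, Emb (0.979), which encodes the membrane protein embigin, Tnfaip2 (0.975), B430306N03Rik (0.973) and Pdk3 (0.973), a pyruvate dehydrogenase kinase.

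Of these, only Ppbp came close to Dnah2 in the size of its differences. It had 6541.9 and 6306.5 with [BF/S+L/Ep] at 12 h, 2405.1 and 2233.1 with DMSO at 12 h, 1693.5 and 1592.3 with the extract at 4 h, and 638.5 and 980.2 with DMSO at 4 h. Its groups stood in the same order as those of Dnah2, and its extract minus DMSO log2 difference was 1.47 at 12 h and 1.05 at 4 h. The other 4 of the correlated genes had averages of 0.30 to 0.52. When likeness was measured by size as well, as the distance between centred group means on the log2 scale, the nearest 5 were Ppbp (0.24), the chemokine Cxcl3 (0.64), the fatty acid receptor Gpr84 (0.65), the chemokine Cxcl2 (0.76) and Tnfaip3 (0.76), which encodes the NF-κB inhibitor A20.

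**Figure D4:**
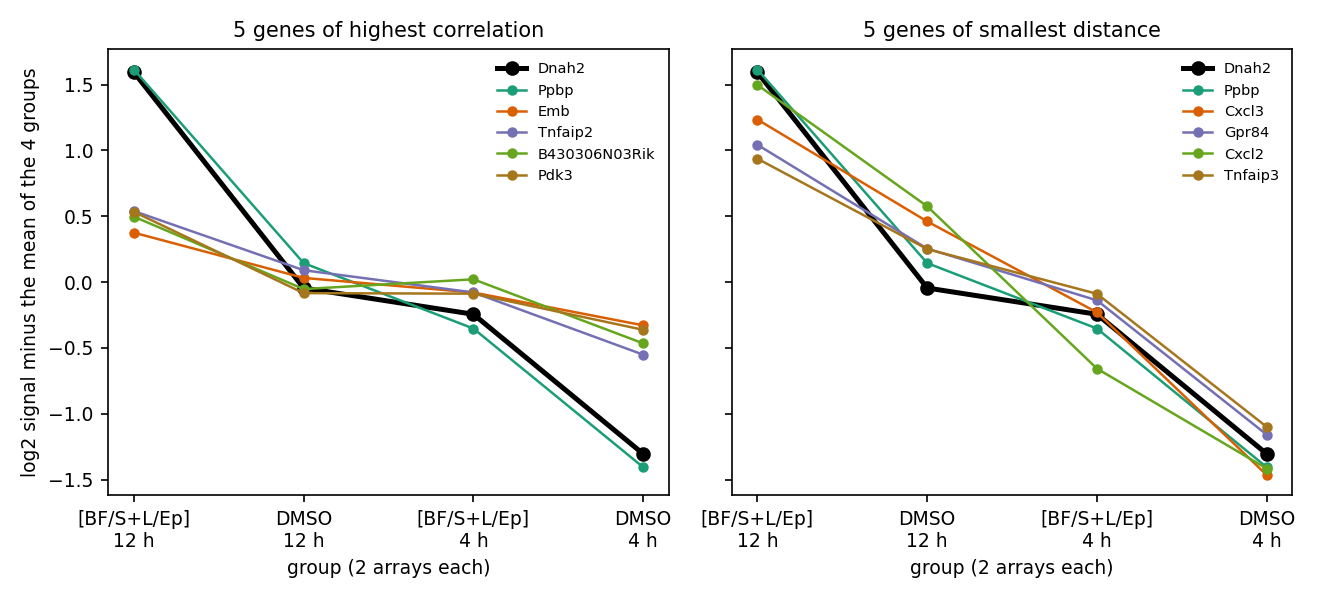
Group means of log2 signal, each minus the mean of the 4 groups, for Dnah2 (black) and the 5 genes of highest correlation (left) or smallest distance (right). Each point is the mean of 2 arrays. Ppbp, at a distance of 0.24, runs close to Dnah2 in both panels, and the other 4 genes on the left span a narrower range.

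Markers of other cells were read beside the Dnah2 values. Of the multiciliated cell list, 10 of 12 genes were measured, 2 (Ccno and Tppp3) exceeded the reference in 4 or more arrays, and Tekt1, Tekt2, Rsph4a, Dnaic1, Dnaic2 and Hydin were under it on all 8. The summed signal of the 10 was 314.6 and 401.7 with [BF/S+L/Ep] at 12 h, 453.2 to 613.5 with DMSO at 12 h, 408.9 to 409.2 with the extract at 4 h, and 489.4 to 557.6 with DMSO at 4 h. No direction is read from this sum, since 8 of its 10 genes did not reach that level. The 2 that did differed in sign, with an average log2 difference of 0.64 for Ccno (adjusted p = 0.802) and -1.32 for Tppp3 (adjusted p = 0.494). None of the 8 sperm and testis markers was above the reference on 4 or more arrays.

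The sums of 2 other lists were higher at 12 h than at 4 h, with extract and with DMSO, as Dnah2 was. Other sums went against Dnah2 at 12 h. The neutrophil sum was 2770 to 3065 with extract against 3236 to 3248 with DMSO, and it overlapped at 4 h. The sperm and testis sum, from genes at or near background, was 239 to 257 against 354 to 413. The 5 platelet and megakaryocyte markers summed to between 28030 and 29509 with [BF/S+L/Ep] at 12 h, 19618 and 20737 with DMSO at 12 h, 14227 and 18558 with the extract at 4 h, and 12732 and 14970 with DMSO at 4 h. These sums stood in the order of the Dnah2 groups, with extract and DMSO overlapping at 4 h. Most of the sum is Pf4 and Ppbp. For the average of the treatment times 1 of the 5 passed the limma test (0.187% of all genes did). It was Ppbp, with a log2 difference of 1.26 (adjusted p = 6.93e-04). Ppbp is also the gene found above to be most like Dnah2, which was chosen by its response on these arrays. The lists were drawn up with earlier results of these data known, so this count and p are no independent support. The other platelet markers had 0.25 for Pf4 (adjusted p = 0.622), -0.04 for Itga2b (adjusted p = 0.988), 0.41 for Gp9 (adjusted p = 0.947) and -1.15 for Gp1bb (adjusted p = 0.740). Itga2b, the platelet integrin, overlapped between extract and DMSO at both times. The sum of the macrophage markers, 5 measured of 6, was higher at 12 h than at 4 h, with extract and DMSO overlapping at both times. It lay between 20324 and 20880 with [BF/S+L/Ep] at 12 h, 19226 and 21553 with DMSO at 12 h, 16699 and 16949 with the extract at 4 h, and 16480 and 16741 with DMSO at 4 h. For 12 h over 4 h in DMSO 2 of the 5 rose in the limma test, where 3.34% of all genes passed in either direction. These were Adgre1, which encodes F4/80, by 1.16 on the log2 scale (adjusted p = 5.07e-04) and the complement gene C1qa by 0.44 (adjusted p = 0.0338). The other 3 had 0.61 for Mertk (adjusted p = 0.0530), 0.10 for Cd68 (adjusted p = 0.807) and -0.31 for Fcgr1 (adjusted p = 0.274). Of the 10 dendritic cell markers 1 passed for the same contrast (3.34% of all genes), the transcription factor Zbtb46, with 0.78 (adjusted p = 0.00930). The part of either cell type in the Dnah2 signal was not tested. Of the markers measured for B cells (2), T and NK cells (3), mast cells and basophils (4) and erythroid cells (2), 0 exceeded the reference in 4 or more arrays, while 3 of 7 neutrophil and 1 of 3 stromal markers did.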

How the data were processed

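RNA of mouse bone marrow dendritic cells was measured on 8 arrays, 2 for each of 4 groups taken from the sample labels. The intensity values are MAS5 signals that the authors deposited, 1 per probe set and array, on a linear scale. No MAS5 version is stated in the sources used here. With 2% taken off each end, the mean of every array was 500.0, so the authors' scaling fixes the total signal and a change is relative to it. Of 45101 probe sets, 64 controls were left out. By the annotation given, 34945 of the rest have 1 gene symbol, 932 have several and 9160 have none.

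A linear model of 4 group means was fitted to log2 signals (limma 3.58.1 under R 4.3.3, with statmod 1.5.0), with moderation along an intensity trend (residual df 4, prior df 8.833), two-sided tests, Benjamini-Hochberg adjustment over 45037 probe sets and a threshold of 0.05. A gene is read by its brightest probe set with 1 symbol. No fold is given for a gene under the background reference on all 8 arrays. The plan had a test of Dnah2 for time in DMSO, which is given without its p because those arrays were part of the response that chose the gene. The fit was tested on simulated data. Plots were made in Python 3.11.15 with matplotlib 3.10.9. Of 114 listed genes, 112 were matched to RefSeq, 15 of them under older symbols where the table uses those.

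The genes named were all Dnah2 probe sets, the 5 nearest genes on each side, other dynein heavy chains above the reference on at least 4 arrays with Dync1h1 and Dync2h1, the 3 members of each other list with the smallest p, and the 5 most similar genes by each measure. Heavy chains under the reference, and markers, were named after their values were seen. The gene and the lists were chosen with earlier results of these data known. A neighbour that the plan listed by name is not reported here. Alternatives were quantile normalization, median centring, an offset of 50, no intensity trend, robust moderation, a filter on dim probe sets, a replicate block, only the arrays of the contrast, and omission of each array. For the gene lists, the probe set with the smallest p was tried in place of the brightest. The number of arrays limits the precision.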

Additional observations from a re-analysis of the deposited data

Results flagged for a closer look

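For 1 neighbour of Dnah2 both extract arrays lay below both DMSO arrays at 12 h and above both at 4 h. Atp1b2 (1422009_at), which encodes a subunit of the sodium pump, had 11.9 and 10.1 with [BF/S+L/Ep] at 12 h, against 85.5 and 17.0 with DMSO at 12 h. At 4 h it had 57.4 and 72.7 with [BF/S+L/Ep], against 11.1 and 8.1 with DMSO. The response at 12 h minus that at 4 h was -4.57 on the log2 scale, and the limma test of this difference was not passed (adjusted p = 1.0). Only 1 of the 8 values was above the background reference. All 4 values at 12 h were under it, so the difference is not read as a fold. Atp1b2 was not alone in having extract and DMSO arrays apart in opposite directions at the 2 times. Dync1li1, a subunit of cytoplasmic dynein 1 above the reference on all 8 arrays, had 1001 and 949.3 with [BF/S+L/Ep] at 12 h, against 667.2 and 854.2 with DMSO. At 4 h it had 917.4 and 875.5 with [BF/S+L/Ep], against 940.6 and 941.7 with DMSO. Dync1li2, above the reference on all 8 arrays, and Dnah5 and Dnaaf19, both under it on all 8, were also apart in this way. Non-overlap is common with duplicates, and the share over all probe sets was not counted, so no excess is read from these genes.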

How the results depend on the processing

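The Dnah2 differences kept their direction under each alternative tried, and their shifts from the main values were smaller than the spread between duplicates. Only normalization, centring, the offset and the omission of an array could move them, as the other settings change the error or the probe sets kept. With duplicates, omission shifts a group mean by an amount fixed by the duplicate difference, so the small shifts there are no separate support. With all arrays kept, the Dnah2 differences for the extract over DMSO lay between 1.59 and 1.71 at 12 h, 0.98 and 1.12 at 4 h, 1.29 and 1.41 for the average, and 0.58 and 0.62 for the difference of the responses. With each array left out in turn the ranges were 1.48 to 1.79 at 12 h, 0.93 to 1.19 at 4 h, 1.27 to 1.43 for the average and 0.42 to 0.73 for the difference of the responses. For 12 h over 4 h with extract they were 1.68 to 1.99 with an array left out and 1.78 to 1.84 otherwise. For 12 h over 4 h in DMSO they lay between 1.13 and 1.39 with an array left out and between 1.17 and 1.26 otherwise. Without the intensity trend it was 1.26, as the trend sets the error and not the difference. The standard errors given here rest on that trend, and without it the same difference stood out less from its error. For the average of the treatment times, the counts of dynein genes and of neighbours that passed were 0 under every alternative run. Alternatives were not run for these counts at 12 h, at 4 h or for time in DMSO.

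The replicate numbers gave no pairing: same-numbered arrays correlated in their deviations from the group means by -0.03 to 0.11 over 23561 probe sets. With the replicate block the Dnah2 difference for time in DMSO was 1.26, which the block cannot change because each group holds both replicate numbers. The counts for the average were again 0. Duplicate arrays leave a difference in spread between groups untestable, and Dnah2 was read by 1 probe set only.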
